A study of Rattus norvegicus with 16 samples.

Results

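The 6 genes described here encode the chains of the cartilage collagens of types II, IX and XI: Col2a1 (type II), Col11a1 and Col11a2 (type XI), and Col9a1, Col9a2 and Col9a3 (type IX). They were chosen by name, and all 6 are listed in each of the 4 groups, whose tables hold 13596 genes in common and 14930 in any. Discs came from 8 male Sprague-Dawley rats, 8 weeks old at surgery, in which the L4-5 and L5-6 discs were stabbed once with a needle (LDP, lumbar disc puncture) and the L2-3 and L3-4 discs of the same animals were left unpunctured (CON). Rats 1 to 4 were killed 2 weeks and rats 5 to 8 were killed 8 weeks after surgery, and both discs of a kind were pooled per rat, which gave 16 single-cell libraries (n = 4 per group). The CON discs lie in operated animals next to the punctured levels, so no group comes from an unoperated rat, and all cells had passed through pronase and collagenase digestion.

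Collagen II is the main fibril of cartilage, a homotrimer of the Col2a1 chain. Collagen XI, built from the Col11a1 and Col11a2 chains together with a modified Col2a1 chain, lies within the fibril and limits its width, and collagen IX, a heterotrimer of the 3 Col9 chains, is bound to the fibril surface and projects from it towards other matrix proteins. In the disc these fibrils fill the nucleus pulposus (NP) and inner annulus fibrosus (IAF), and give way to collagen I in the outer annulus fibrosus (OAF).

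The sequence before the start site is shown for the 4 members present in the RefSeq promoter table of build GRCr8 (Col11a1, Col11a2, Col9a1 and Col9a2). Each is 250 bases, written 5′ to 3′ on the gene's own strand. The capitals mark motifs, each searched on both strands. The GC box was taken as GGGCGG and the box named CCAAT by its own letters. The TATA box was taken as TATAAA. For the SOX core the letters ACAAAG were searched, and likewise the variant ending in TG in place of AG, written ACAATG.
Col11a1, chr2:204508886-204509135, plus strand: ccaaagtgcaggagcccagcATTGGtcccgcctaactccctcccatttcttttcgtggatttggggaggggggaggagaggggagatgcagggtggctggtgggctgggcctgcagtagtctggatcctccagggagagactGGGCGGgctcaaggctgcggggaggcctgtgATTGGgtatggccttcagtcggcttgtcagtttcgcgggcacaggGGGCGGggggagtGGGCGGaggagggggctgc
Col11a2, chr20:4817649-4817898, minus strand: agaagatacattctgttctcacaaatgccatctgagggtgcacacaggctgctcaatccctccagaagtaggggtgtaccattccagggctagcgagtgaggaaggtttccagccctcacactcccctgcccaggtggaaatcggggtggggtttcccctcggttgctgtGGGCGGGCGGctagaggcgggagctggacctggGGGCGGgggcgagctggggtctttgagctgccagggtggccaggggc
Col9a1, chr9:34081114-34081363, plus strand: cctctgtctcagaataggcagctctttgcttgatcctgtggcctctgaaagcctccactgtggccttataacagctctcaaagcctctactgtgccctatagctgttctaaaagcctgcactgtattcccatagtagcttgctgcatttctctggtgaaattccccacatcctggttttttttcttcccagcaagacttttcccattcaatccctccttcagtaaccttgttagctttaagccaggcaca
Col9a2, chr5:139892548-139892797, plus strand: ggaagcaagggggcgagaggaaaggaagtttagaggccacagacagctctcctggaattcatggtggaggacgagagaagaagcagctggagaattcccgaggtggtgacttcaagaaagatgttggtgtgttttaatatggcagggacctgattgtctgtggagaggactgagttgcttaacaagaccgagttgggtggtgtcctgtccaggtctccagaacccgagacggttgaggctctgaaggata

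The type XI pair carried GC boxes, 3 in Col11a1 and 3 in Col11a2 (of which the first pair overlap), and Col11a1 also held 2 CCAAT boxes, read as ATTGG on this strand. No searched motif was found in the Col9a1 or the Col9a2 window, and no SOX core or TATA box in any of the 4. Of all 33469 promoters of this length, 30.47% held a GC box, 34.02% a CCAAT box, 25.29% a SOX core and 12.93% a TATA box. GC content was 65.6% in Col11a1 and 62.8% in Col11a2 against 52.0% in Col9a2 and 46.8% in Col9a1, with a median of 51.2% over all promoters. These matches describe the letters only.

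The 16 libraries held 149272 cells, 2221 to 15918 each, with 17759809 to 85025591 UMIs (counted molecules) per library, the median cell of a library holding 3861 to 8092. The cells that the authors named intervertebral disc (IVD) cells numbered 127077, or 59.1 to 96.7% of a library, and all values below are for these cells unless another class is named. Their 5 defining markers (Acan, Col2a1, Sox9, Fmod and Comp, of which Col2a1 is a member) summed to between 9031 and 28739 CPM (counts of a cell scaled to a common total) in IVD cells and to at most 4190 CPM in endothelial, myeloid or lymphoid cells. Pairs of libraries shared between 0 and 75 cell barcodes, at most 0.720% of the smaller library. LDP rat 6 had the fewest IVD cells, 1313. LDP rat 5, with 6100 IVD cells at a median of 7936 UMIs, had the lowest level of 5 members among the libraries, as given below.

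A level is the mean CPM over the IVD cells of a library, and the libraries read 3′ ends, so that a molecule counts once whatever its length and the values were not divided by length. On that scale Col2a1 came first in each of the 16 libraries, followed by Col11a1, then by Col11a2 and Col9a2 in either order, then by Col9a3, with Col9a1 last. Averaged over the CON libraries at 2 weeks (mean ± SD, n = 4), Col2a1 stood at 10427 ± 4422, Col11a1 at 2292 ± 495, Col11a2 at 449.8 ± 108, Col9a2 at 373 ± 16, Col9a3 at 177 ± 61.1 and Col9a1 at 62.2 ± 24.6 CPM. Col11a2 and Col9a2, neighbours in that order, lay within the spread of Col11a2 between libraries. Averaged over cells, the 6 genes together made up 0.723 to 1.88% of the UMIs of an IVD cell in those libraries. At 8 weeks they made up 0.149 to 0.468% over both groups.

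**Figure D1:**
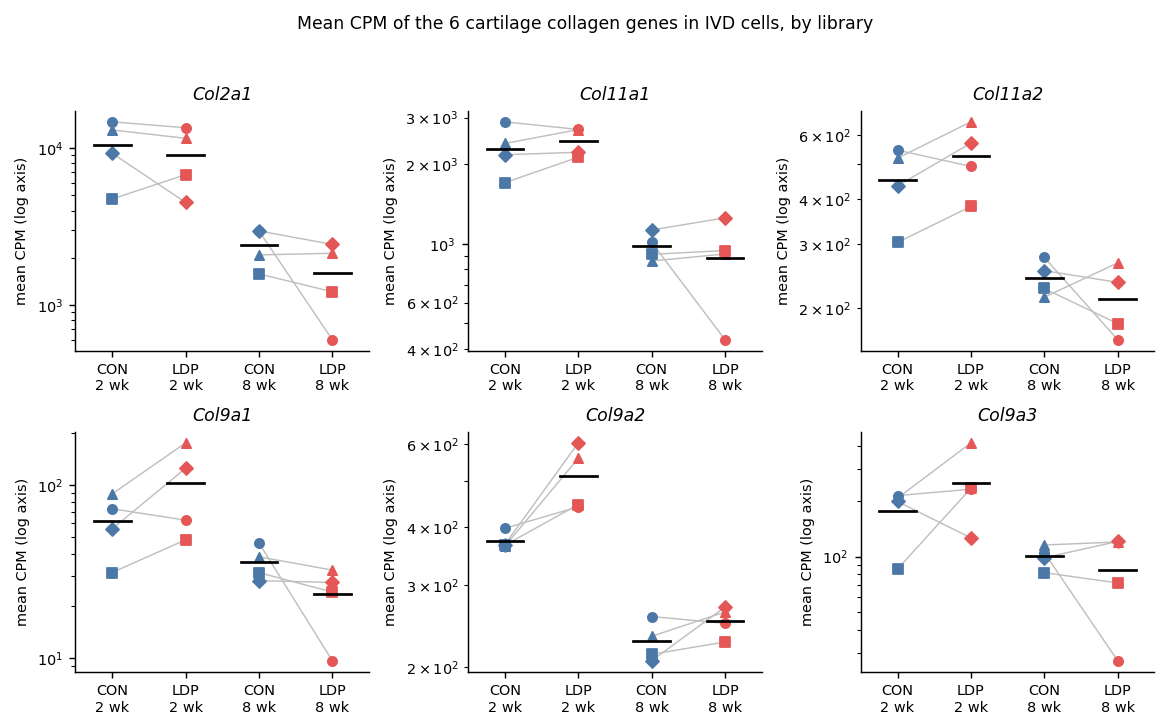
Mean CPM of each of the 6 genes in IVD cells (log axes, a scale for each panel), 1 point per library. Blue marks CON and red LDP, a grey line joins the libraries of 1 rat (circle, square, triangle and diamond for rats 1 to 4, and again for rats 5 to 8), and a black bar is the mean of 4 libraries. The Col9a2 levels of LDP lie above all CON levels at 2 weeks, and LDP rat 5 is the lowest point of 5 panels at 8 weeks.

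LDP was compared with CON within rats, and no member passed the test at either time. Punctured and unpunctured discs came from different lumbar levels in every rat, so puncture and disc level cannot be told apart in these comparisons. By limma with the rat as a block and Benjamini-Hochberg adjustment over 11572 genes, 0 of 6 members had an adjusted p below 0.05 at 2 weeks, where 0.138% of all genes tested were called higher and 0.0432% lower in LDP. At 8 weeks it was again 0 of 6, against 0.112% of all genes higher and 0.147% lower. These were 16 higher and 5 lower genes at 2 weeks and 13 and 17 at 8 weeks, and with each library centred on its median gene 26 and 3, and 30 and 11. At an unadjusted p below 0.05 by limma the numbers were 1 member at 2 weeks (Col9a2) and 0 at 8 weeks. Of the 11572 genes, 489 were higher and 842 lower at that level at 2 weeks, and 418 and 1974 at 8 weeks. By edgeR on recovered counts 0 members were called at both times. Fold changes below are log2 differences of mean CPM + 1. Both times share a single estimate of the spread in this fit, so the SE of a gene is the same at each.

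Col2a1, the type II chain, was lower in LDP in 3 of 4 rats at each time, by amounts that differed widely. At 2 weeks the CON libraries of rats 1 to 4 stood at 14680.3, 4736, 13036 and 9255 CPM and the LDP libraries at 13460, 6768, 11526 and 4506 CPM. The groups overlapped, with rat 4 at 0.487 times its CON level and rat 2 standing at 1.43 times. The fitted difference was −0.21 ± 0.34 (SE; 95% interval −0.96 to 0.55; adjusted p = 0.810). It was 0.071 without rat 4, so the sign rests on that animal.

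At 8 weeks the Col2a1 levels of rats 5 to 8 were 2962, 1579.6, 2086 and 2964 CPM in CON and 602, 1216, 2138 and 2435 CPM in LDP. LDP rat 5 was the lowest of all 16 libraries, at 0.203 times its own CON library. LDP rat 6 was also below the lowest CON library, at 0.77 times its own CON, and LDP of rats 7 and 8 lay inside the CON range. The difference was −0.73 ± 0.34 (95% interval −1.48 to 0.02; adjusted p = 0.251), and −0.21 without rat 5 (adjusted p = 0.780). In IVD cells 5 fibrocartilage and tendon markers were summed (Tnmd, Scx, Mkx, Thbs4 and Col1a1, none at 0 in any library). The sum was 1705 to 3168 CPM in CON and 696 to 2031 CPM in LDP, lowest in LDP rat 5. Col1a1 alone averaged 2236.5 CPM in CON, so the sum there was mostly Col1a1. In CON rat 5, 3 erythroid genes summed to 2984 CPM, and in LDP rat 5 to 1368 CPM. Of the other 14 libraries, 13 had between 1.65 and 582 CPM and LDP rat 4 had 1352. The 4 endothelial markers summed to 113, 114, 94.5 and 108 CPM in CON and 58.8, 67.5, 77.3 and 88.4 CPM in LDP (1 of the 4 at 0 in LDP rat 6), lower in LDP in 4 of 4 rats without overlap. At 8 weeks LDP has an endothelial class and CON has none, so the IVD class was not drawn alike in both groups. The part of these markers and of the class limits in the result was not tested.

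Neither type XI chain passed the test of LDP against CON at 2 or 8 weeks. Col11a1 stood at 2894, 1703, 2397 and 2173 CPM in CON and at 2708, 2126, 2705 and 2219.9 CPM in LDP at 2 weeks, a difference of 0.11 ± 0.20 (95% interval −0.34 to 0.55; adjusted p = 0.832). The groups overlapped, and LDP of rats 2 to 4 was 1.02 to 1.25 times CON. At 8 weeks the values were 1014, 913, 862 and 1128 CPM in CON and 434, 943.5, 915 and 1254 CPM in LDP. LDP rat 5 was at 0.428 times CON and the other rats between 1.03 and 1.11 times, so the fitted −0.23 ± 0.20 (adjusted p = 0.501) became 0.10 without rat 5 (adjusted p = 0.794).

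Col11a2, the partner chain, had 544, 304, 517 and 434 CPM in CON and 491, 381, 651 and 569 CPM in LDP at 2 weeks. It was higher in LDP in rats 2, 3 and 4, at 1.26 to 1.31 times CON, and lower in rat 1, with overlapping groups (0.22 ± 0.16, 95% interval −0.14 to 0.59, adjusted p = 0.585). At 8 weeks the levels were 276, 227, 215 and 254 CPM in CON against 164, 181, 267 and 236 CPM in LDP. Only rat 7 of these 4 was higher in LDP (−0.22 ± 0.16, adjusted p = 0.444; −0.04 without rat 5).

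Among the type IX chains, Col9a2 was the one member whose groups did not overlap at 2 weeks. Its CON libraries stood close together at 397, 365, 364 and 366 CPM, while LDP had 441, 446, 560.1 and 604 CPM, higher in 4 of 4 rats by 1.11 to 1.65 times. The difference of 0.45 ± 0.13 (1.36-fold, 95% interval 1.12 to 1.65) had an unadjusted p of 0.00487 and an adjusted p of 0.227 by limma, so it did not pass over all genes. Of the 11572 genes, 2.7% were higher in LDP with no overlap of the groups and 8.46% were higher in 4 of 4 rats. With every cell thinned to 1000 UMIs, Col9a2 had a UMI in 26.6, 25.9, 26.6 and 27.1% of IVD cells in CON and in 32.1, 31.1, 34.6 and 36.9% in LDP, again without overlap (55.7 to 64.8% and 66.9 to 74.1% with all UMIs).

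At 8 weeks the Col9a2 values were 257, 213, 233 and 207 CPM in CON and 249, 227, 263 and 269 CPM in LDP. The groups overlapped, rat 5 was slightly lower in LDP (0.967 times) and the other rats were higher (0.15 ± 0.13, 95% interval −0.13 to 0.43, adjusted p = 0.493). Col9a2 was thus the one member whose LDP rat 5 library stayed near its CON library. The 5 others stood there at 0.203 to 0.594 times CON.

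Col9a1, the chain with the lowest level, had 72.9, 31.2, 88.8 and 55.8 CPM in CON and 62.6, 48.2, 175 and 125 CPM in LDP at 2 weeks. Rats 2, 3 and 4 were higher in LDP by 1.54 to 2.24 times and rat 1 was lower, and the ranges overlapped (0.63 ± 0.32, 95% interval −0.09 to 1.34, adjusted p = 0.466). At 8 weeks it stood at 46.2, 31.2, 38.4 and 28.0 CPM in CON and at 9.66, 24.1, 32.3 and 27.4 CPM in LDP, lower in LDP in 4 of 4 rats. Across all genes 26.2% were lower in 4 of 4 rats at that time. The fit gave −0.70 ± 0.32 (95% interval −1.41 to 0.02; adjusted p = 0.250), or −0.21 without rat 5 (adjusted p = 0.775).

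Col9a3 was uneven between rats and had the largest standard error of the 6. At 2 weeks CON had 215, 85.7, 208 and 199 CPM and LDP 233, 235, 415 and 126 CPM, so rat 2 stood at 2.74 times its CON library and rat 4 at 0.634 times (0.48 ± 0.38, 95% interval −0.36 to 1.31, adjusted p = 0.617). In rat 4 the type IX chains therefore parted, with Col9a1 at 2.24 times, Col9a2 at 1.65 times and Col9a3 below its CON level. At 8 weeks the levels were 105, 81.8, 116 and 98.7 CPM in CON and 27.2, 72.0, 120.1 and 121 CPM in LDP (−0.44 ± 0.38, adjusted p = 0.501). Without rat 5 that value was 0.054 (adjusted p = 0.966).

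**Figure D2:**
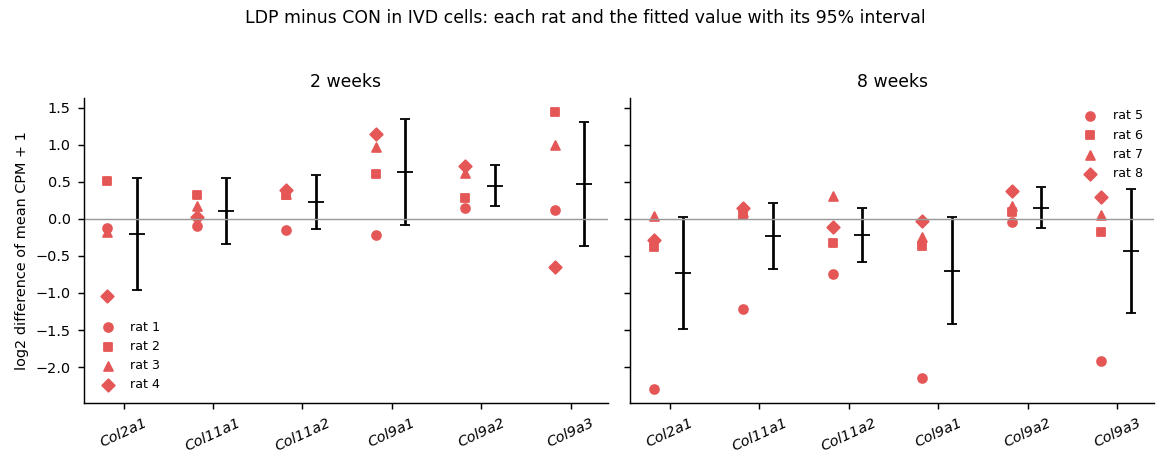
Log2 difference of mean CPM + 1 between the LDP and CON libraries of each rat (red symbols), and the limma value with its 95% interval (black), at 2 weeks and 8 weeks after puncture. Rat 5 lies far below the others for all members but Col9a2. The Col9a2 interval at 2 weeks, 0.17 to 0.72, is the only one of the 12 that leaves out 0, and no member passes after adjustment over all genes.

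The difference between the times of LDP minus CON was below 0 for 6 of 6 members, and 0 of 6 were called. The test called 0 of 11572 genes in either direction, or 0% (30 higher and 176 lower at an unadjusted p below 0.05; edgeR also called 0). Col9a1 had the largest value among the members, −1.32 ± 0.46 (95% interval −2.34 to −0.31, unadjusted p = 0.0152, adjusted p = 0.9999), and Col9a2 the smallest, −0.30 ± 0.18 (adjusted p = 0.9999). Without rat 5 the difference was −0.0018 for Col2a1 (−0.52 with all rats), −0.012 for Col11a1 (−0.34) and −0.26 for Col11a2 (−0.44). It was −0.84 for Col9a1, −0.23 for Col9a2 and −0.42 for Col9a3 (−0.91). Col2a1 and Col11a1 thus lost nearly all of the difference without that animal, and Col9a3 the larger part. Col11a2, Col9a1 and Col9a2 kept most of it. The median over the members was 0.34 at 2 weeks and −0.34 at 8 weeks, where the medians of all genes tested were −0.08 and −0.16. The median at 8 weeks rests on rat 5, without which the 6 members ran from −0.21 to 0.21, with 3 above and 3 below 0. With each library centred on its median gene, the median of all genes at 8 weeks moved to 0.02. On this scale the 8-week values were −0.55 for Col2a1, −0.06 for Col11a1, −0.04 for Col11a2, −0.52 for Col9a1, 0.32 for Col9a2 and −0.26 for Col9a3.

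The make-up of the set differed between libraries as well. Col2a1 held 65.6 to 78.5% of the summed CPM of the 6 genes in CON at 2 weeks, and 77.4, 67.6, 71.9 and 55.3% in the LDP libraries of rats 1 to 4. At 8 weeks its share was 51.9 to 63.6% in CON and 40.5, 45.7, 57.2 and 56.1% in LDP of rats 5 to 8. Col11a1 took 14.4 to 23.6% and 21.8 to 30.0% in CON at the earlier and later time. The share of Col9a2 was 2.11 to 7.42% at 2 weeks in either group and 4.42 to 7.01% in CON at 8 weeks, and it was 16.7, 8.51, 7.04 and 6.20% in LDP of rats 5 to 8, highest in rat 5, the library in which Col2a1 was lowest.

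**Figure D3:**
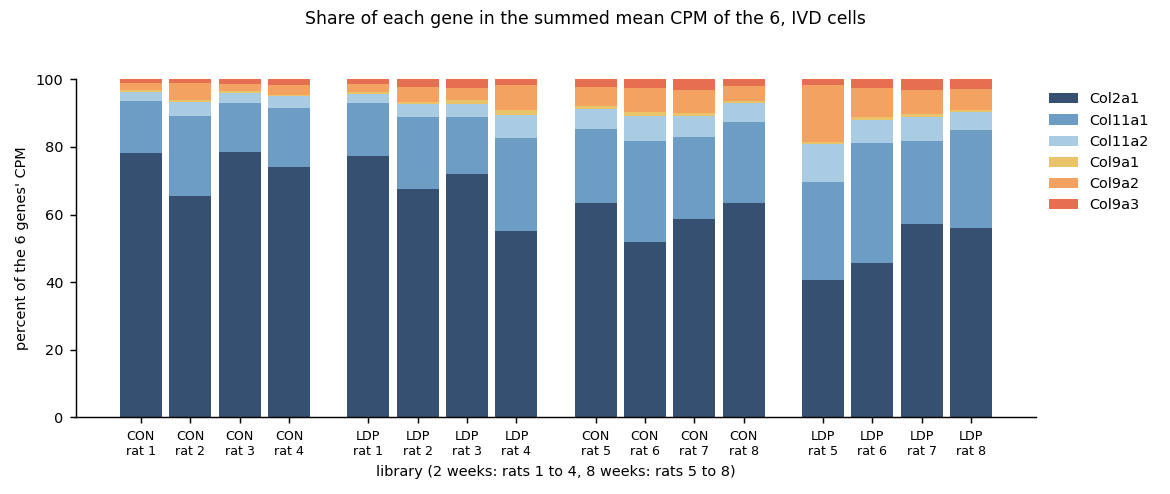
Share of each gene in the summed mean CPM of the 6 genes in IVD cells, 1 bar per library, in percent. Col2a1 fills 65.6 to 78.5% of the CON bars at 2 weeks and 40.5 to 57.2% of the LDP bars at 8 weeks, and Col9a2 is widest, at 16.7%, in LDP rat 5.

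Unpunctured discs of rats killed at 8 weeks had lower levels than those of rats killed at 2 weeks for 4 of 6 members, where 11.1% of 11701 genes were called lower and 7.08% higher (with each library centred on its median gene, 1066 genes were lower and 1086 higher, against 1302 and 829). Col2a1 fell by 2.04 ± 0.34 on the log2 scale (4.12-fold lower, adjusted p = 0.00398), Col11a1 by 1.21 ± 0.16 (adjusted p = 0.00172), Col11a2 by 0.86 ± 0.17 (adjusted p = 0.00921) and Col9a2 by 0.71 ± 0.09 (adjusted p = 0.00165), and the groups of these 4 did not overlap, as for 14.1% of all genes. Col9a1 (−0.70 ± 0.28, adjusted p = 0.104) and Col9a3 (−0.73 ± 0.26, adjusted p = 0.0737) missed the threshold with all libraries and passed it without CON rat 2 at 2 weeks (−0.99, adjusted p = 0.00892, and −1.05, adjusted p = 0.00139). The times are different rats of different age, and age, time after surgery and library preparation cannot be told apart, and these CON libraries are also the controls of the comparisons with LDP. The 5 fibrocartilage and tendon markers in IVD cells summed to 6824 to 12828 CPM at the earlier and 1705 to 3168 CPM at the later time. Col1a1 alone averaged 10612 and 2236.5 CPM, so these sums were mostly Col1a1. The 4 endothelial markers, none at 0, summed to 173 to 335 CPM and 94.5 to 114 CPM. Neither list overlapped between the times. CON at 8 weeks has no endothelial class, so the IVD class was not drawn alike at both times. The part of these markers was not tested.

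The authors divided IVD cells at 2 weeks into NP, IAF and OAF subclusters (in CON 34.7 to 69.7%, 16.9 to 53.5% and 9.28 to 14.6% of the IVD cells, in LDP 37.0 to 56.3%, 37.4 to 50.6% and 6.29 to 16.4%). The subclusters were drawn from the expression of these same cells, with Col2a1 among the genes used to name them. Levels between subclusters are therefore given as a description with no test. NP cells were deeper than IAF cells in every library. Median UMIs were 6997 to 8544 in NP against 2442 to 3789 in IAF cells of CON, and 7894 to 10580 against 4099.5 to 6403 in LDP. OAF cells had 3258 to 7178 in CON and 3623 to 5394 in LDP. In 42 of 48 pairs of a member and a library the OAF level was the lowest of the 3, and the exception was Col11a1, which was lowest in OAF in 2 and highest there in 5 of 8 libraries.

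Col9a2 had the largest measured ratio of NP to OAF level, though its rank rests on OAF levels not above background. In the CON libraries of rats 1 to 4 it stood at 443.5, 421, 406 and 403 CPM in NP cells, at 469.7, 406, 392 and 399.6 CPM in IAF cells, and at 32.4, 20.5, 29.6 and 54.1 CPM in OAF cells. The OAF levels were within the range of cells that should lack the gene (20.1 to 53.5 CPM in endothelial and 10.7 to 54.7 CPM in myeloid cells of CON at 2 weeks), so the size of a ratio to OAF is set by a level not above background. NP cells had 7.44 to 20.6 times the OAF level (log2 3.66 ± 0.59, mean ± SD of 4 libraries), while NP and IAF cells differed by a log2 of only 0.01 ± 0.06. The NP to OAF log2 ratio in CON was 2.79 ± 0.28 for Col9a3, 2.23 ± 0.39 for Col2a1, 1.71 ± 0.46 for Col9a1 and 1.24 ± 0.18 for Col11a2. The Col9a3 ratio has the same limit. Its OAF levels in CON, 10.7 to 42.3 CPM, were near the 8.12 to 41.6 CPM of myeloid cells.

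For Col11a1 the log2 ratio of NP to OAF was −0.26 ± 0.41 in CON and 0.11 ± 0.62 in LDP, above 0 in 1 and 2 of 4 libraries, and that of IAF to OAF −0.34 ± 0.31 and 0.066 ± 0.44. Its OAF cells had 3286, 2704, 2313 and 2545 CPM and its NP cells 2873, 1544, 2656 and 2147 CPM in CON. In OAF cells Col11a1 therefore made up 42.7 to 67.5% of the 6 genes' CPM in CON, against 13.3 to 20.3% in NP cells, and stood above Col2a1 in rat 1 (3286 against 3070.5 CPM) and rat 2 (2704 against 1108 CPM). The mean NP to IAF log2 ratio lay between −0.03 and 0.32 for all 6 members in CON and between −0.20 and 0.15 in LDP.

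**Figure D4:**
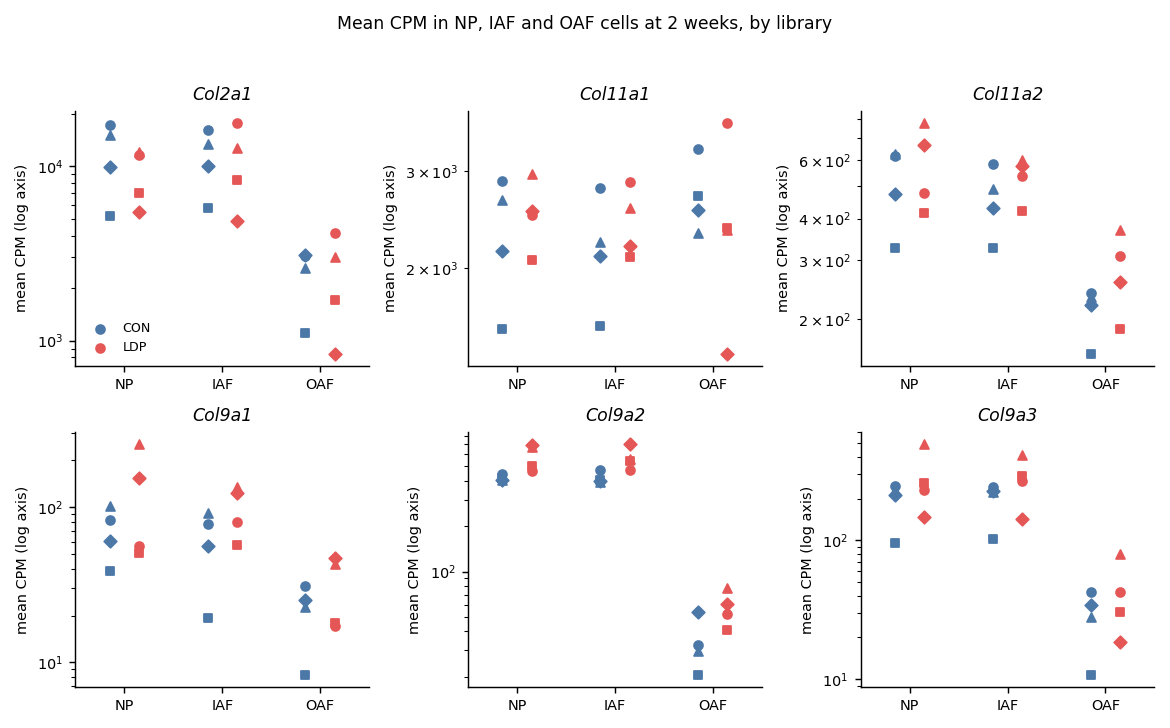
Mean CPM (log axes) in the NP, IAF and OAF subclusters at 2 weeks, 1 point per library, blue for CON and red for LDP (circle, square, triangle and diamond for rats 1 to 4). For 5 genes the OAF point of a library lies below its NP and IAF points, by 7.44 to 20.6 times between NP and OAF for Col9a2 in CON, and not for Col11a1.

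Within the subclusters the comparison of LDP with CON at 2 weeks also called 0 of 6 members in each. The authors clustered each group apart, so a subcluster of CON and that of LDP need not hold the same kinds of cells. In NP cells limma called 0% of 11320 genes higher and 0% lower (579 higher and 567 lower at an unadjusted p below 0.05; edgeR called 1). Col9a2 stood at 462.5, 503, 671 and 692 CPM in LDP, above all CON values (0.45 ± 0.16, adjusted p = 0.442), as were 3.77% of genes, and Col2a1 at 11599.7, 7011, 12014 and 5444 CPM in LDP against 17321, 5189.6, 15024 and 9902 CPM in CON (−0.33 ± 0.20, adjusted p = 0.595).

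In IAF cells limma called 0% of 11560 genes in either direction (273 higher and 1291 lower at an unadjusted p below 0.05; edgeR called 1). Col9a1 was higher in 4 of 4 rats there, with 78, 19.3, 91.4 and 56.5 CPM in CON and 80.2, 56.9, 134 and 122 CPM in LDP, as were 6.51% of genes (0.80 ± 0.24, unadjusted p = 0.0101, adjusted p = 0.263). Col9a2 was higher without overlap, with 474, 544, 560.2 and 708 CPM in LDP (0.44 ± 0.17, adjusted p = 0.328), as were 2.03% of genes. The IAF cells were also deeper in LDP without overlap, at a median of 4099.5 to 6403 UMIs against 2442 to 3789 in CON. The part of depth was not tested. In these IAF cells the 5 fibrocartilage and tendon markers summed to 3370 to 8777 CPM in CON and 1767 to 2635 CPM in LDP. The 4 endothelial markers summed to 74.9 to 448 CPM and 35.1 to 64.2 CPM (none at 0 in either list). Both sums were lower in LDP without overlap, and their part in the IAF values was not tested. The sum of the 5 markers was mostly Col1a1 in IVD cells of CON, and its make-up in IAF cells was not examined. The Col2a1 value was −0.11 ± 0.23 (adjusted p = 0.832), and it was 0.077 after median centring, 0.0088 by edgeR and 0.20 without rat 4.

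In OAF cells 1.27% of 12348 genes were called higher and 0.13% lower. Col9a2 had 52.2, 40.8, 78.1 and 60.7 CPM in LDP, higher than CON in 4 of 4 rats (as were 7.33% of genes) with overlapping groups (0.79 ± 0.20, 1.73-fold, unadjusted p = 0.00349, adjusted p = 0.143). Myeloid cells of the same LDP libraries had 31.1 to 86.2 CPM and endothelial cells 18 to 45.7 CPM, so these OAF levels too are near those of cells that should lack the gene. Without rat 4 the value was 0.9995 and passed the test (adjusted p = 0.0155), the one alternative under which a member was called in a comparison of LDP with CON. Col11a2 was higher in 4 of 4 rats too, at 308, 187, 371 and 258 CPM against 239.6, 157, 233 and 219.5 CPM (0.38 ± 0.14, adjusted p = 0.354). In the same OAF cells 4 mural markers (Rgs5, Acta2, Tagln and Myh11, none at 0) summed to 10.2 to 35.4 CPM in CON and 482 to 779 CPM in LDP. Their part in the OAF values was not tested.

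The deposited cells at 8 weeks carry numbered IVD clusters and no subcluster names. In CON the deeper cluster 1 (median 7768 to 8638 UMIs per cell) had 2941, 1427, 2208 and 2757 CPM of Col2a1 in rats 5 to 8, and cluster 2 (3805 to 4284 UMIs) had 2988, 1919.9, 1704 and 3278 CPM. Neither cluster was the higher one in all rats. In LDP rat 5 Col2a1 was low in both clusters, at 450.0 and 823 CPM, as were Col9a1 (8.63 and 11.2 CPM) and Col9a3 (26 and 28.9 CPM), while Col9a2 stood at 241 and 260.9 CPM. A small cluster 3, left out of these sentences, held 22, 84 and 64 IVD cells in LDP of rats 5, 7 and 8, and in rat 5 had 275 CPM of Col2a1 and 88 CPM of Col9a2.

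Levels per cell were uneven. The 10% of IVD cells with the most Col2a1 held 43.2 to 68.7% of its summed CPM in CON at 2 weeks and 68.6 to 81.3% at 8 weeks, where the median cell had 755 to 7001 CPM and 202 to 485 CPM. Col11a1 was spread more evenly, with 25.3 to 33.5% of its CPM in its own top 10% of cells at the earlier and 38.2 to 48.5% at the later time. With each cell thinned to 1000 UMIs, Col2a1 was found in 56.5 to 89.9% and Col11a1 in 64.8 to 82.5% of IVD cells of CON at 2 weeks, and in 31.4 to 46.1% and 41.9 to 53.1% at 8 weeks. All UMIs gave 88.0 to 98.6% and 94.4 to 96.6%, and later 64.2 to 77.8% and 78.5 to 88.0%.

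At the same thinning Col9a1 was found in 2.62 to 7.16% of IVD cells of CON at 2 weeks, and in 11.6 to 23.0% with all UMIs. As a background, endothelial cells of these libraries, in which free RNA, doublets and misassigned cells were not told apart, showed Col2a1 in 21.5 to 60.5%, Col11a1 in 7.25 to 20%, Col9a2 in 1.51 to 4.47% and Col9a1 in 0 to 1.04% of cells thinned in the same way (median depth 1685 to 3511 UMIs, against 4226 to 7640 in IVD cells). In IVD cells thinned in this way, all 6 genes were found together in at most 2.70% of the cells of any library. None of the 6 was found in 2.65 to 12.9% of them at 2 weeks and 20.9 to 42.2% at 8 weeks. The median thinned IVD cell held 2 or 3 of the 6 genes at 2 weeks and 1 at 8 weeks. These counts depend on the thinning. With all UMIs, Col11a1 alone was found in 78.5 to 88.0% of IVD cells in CON and 81.5 to 92.0% in LDP at 8 weeks.

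Across all IVD cells, those with more Col2a1 also held more of the other members. IVD cells of each library were ranked by Col2a1, and the upper tertile was set against the lower tertile on the log2 scale of mean CPM + 1. Over the 16 libraries the mean difference was 3.98 for Col9a1 (2.33 to 4.86), 2.20 for Col9a3, 2.09 for Col11a2, 1.54 for Col11a1 and 1.17 for Col9a2 (0.50 to 2.13). For comparison it was 0.80 for Comp and 0.58 for Acan, both cartilage matrix genes, and −1.43 (−2.06 to −0.36) for Col1a1, the main chain of fibrous collagen I. The lower tertile of Col9a1 held 2.80 to 20.3 CPM, near the 1.16 to 13.7 CPM of endothelial cells of CON at 2 weeks. The top rank of Col9a1 thus rests on a level near background. By mean correlation with Col2a1 it stood below Col11a2, Col11a1 and Col9a3 (0.33 against 0.44, 0.39 and 0.36). The upper tertile had more UMIs per cell in 15 of 16 libraries, at 0.930 to 1.48 times the lower tertile. Across cells the Pearson correlation of log2 values with Col2a1 lay between 0.11 (Col9a2) and 0.56 (Col11a2) over libraries and members, and cells of a library share its depth.

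Within the subclusters at 2 weeks the pattern was not the same for every gene. In NP cells the mean difference between tertiles over 8 libraries was 0.38 for Col9a2 (−0.25 to 1.32), with a correlation of −0.17 to −0.053 in CON and −0.11 to 0.18 in LDP. Col11a1 differed by 1.80 in NP and 1.87 in IAF cells but by 0.31 (0.091 to 0.71) in OAF cells. For Col1a1 the sign of the IVD value did not hold within NP cells, where it was 0.97 (0.22 to 1.73), or on average within IAF cells, at 1.71 (−0.23 to 4.20), while OAF cells gave −0.22 (−0.56 to 0.054). Col9a1, Col9a3 and Col11a2 lay above 0 in each of the 8 libraries in all 3 subclusters.

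**Figure D5:**
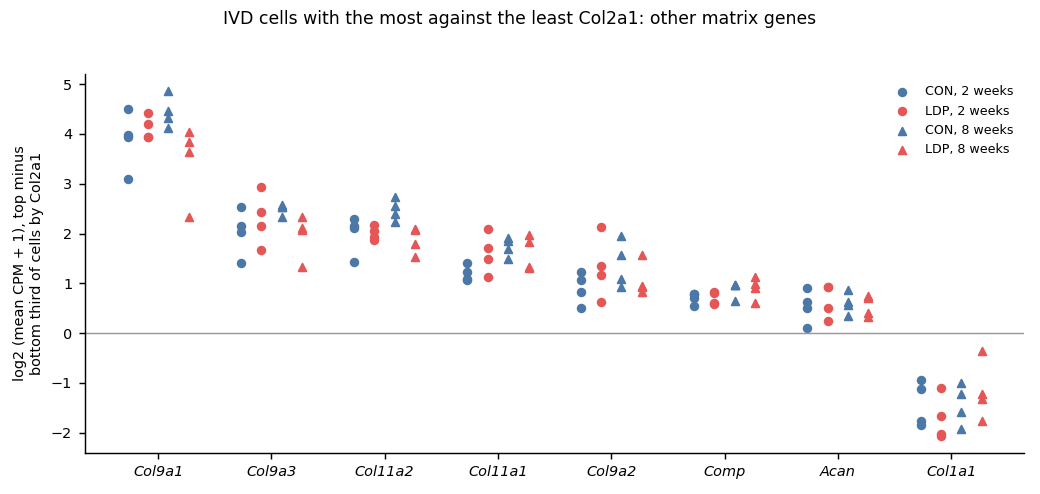
Log2 difference of mean CPM + 1 between the tertile of IVD cells with the most and the tertile with the least Col2a1, for the other 5 members and for Comp, Acan and Col1a1, 1 point per library (circles 2 weeks, triangles 8 weeks, blue CON, red LDP). All points of the members lie above 0, those of Col9a1 highest (2.33 to 4.86) but from lower-tertile levels near background, and all points of Col1a1 lie below 0.

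In the endothelial, myeloid and lymphoid classes the members were found at lower levels than in IVD cells. In endothelial cells the median over libraries of the Col2a1 level was 8.41% of the IVD level of the same library in CON at 2 weeks, 5.00% in LDP at 2 weeks and 10.5% in LDP at 8 weeks (CON at 8 weeks has no endothelial class). In myeloid cells these medians were 9.62 and 8.83% at 2 weeks and 3.45 and 7.45% at 8 weeks, and for lymphoid cells of LDP they were 7.34 and 2.03%. Col11a1 gave medians of 3.15 to 9.87% over the endothelial, myeloid and lymphoid classes of the groups. Since Col2a1 helped to name the classes, its difference between them is a description. The cells without a class name differed between groups at 2 weeks, with Col2a1 at 9.41 to 23.0% of the IVD level in CON and 24 to 72.0% in LDP. The groups were clustered apart, so these cells need not be of the same kinds, and LDP rat 1 had only 23 of them. Their median depth was 5591 to 8203 UMIs in LDP and 1851 to 5324 UMIs in CON. There the medians in LDP were 57.8% for Col11a1, 62.3% for Col11a2, 27.7% for Col9a1, 62.0% for Col9a2 and 55.6% for Col9a3, and 12.3 to 18.7% in CON. At 8 weeks the groups overlapped, with Col2a1 at 6.24 to 8.08% in CON and 1.10 to 10.2% in LDP.

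Across the 16 libraries the log2 levels of the members were correlated with each other at a Pearson r of 0.675 (Col9a2 and Col9a3) to 0.961 (Col2a1 and Col11a1), as a description over points that share the time of sampling. Of 2474 other genes with at least 50 CPM on average, those most like Col2a1 over the 16 libraries were Slc39a7 (r = 0.975), Plod2 (0.974), which hydroxylates lysines of collagen, and Col16a1 (0.971). Col11a1 was most like Sparc (0.978), which encodes a collagen-binding matrix protein, Crispld1 (0.977) and Col16a1 (0.963). For Col11a2 they were Sparc (0.943), Col16a1 (0.931) and Plod1 (0.931), and for Col9a3 Plod2 (0.909), Tm9sf4 (0.895) and Dnajc1 (0.886). Col9a1 was most like Hapln1 (0.838), the link protein of the aggrecan network, P4hb (0.821) and Sparc (0.817). The nearest genes to Col9a2 were others, Ptov1 (0.938), Copz2 (0.915) and Efemp2 (0.912).

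Genes that work on or beside these collagens were followed in 7 lists, and in IVD cells at 2 weeks after puncture 0 genes of any list were called. The counts tested were 24 cartilage matrix partners (median log2 difference −0.11), 24 genes of procollagen folding, modification and export (−0.03) and 11 of procollagen processing and crosslinking (−0.32). Next came 9 chondrogenic and sclerotome transcription factors (−0.11), 11 other collagens (−0.44), 8 collagen receptors (−0.45) and 8 collagen-cleaving proteases (−0.27). The median over all genes tested was −0.08. Of the 2 genes with the smallest p in each list, those higher in 4 of 4 rats were Scrg1, a cartilage matrix partner (610.4 ± 93.4 and 1047 ± 352 CPM, 0.74 ± 0.16, adjusted p = 0.131), Snorc, a chondrocyte proteoglycan (0.38 ± 0.10, adjusted p = 0.201), P4ha2, a proline hydroxylase of procollagen (548 ± 58.7 and 779 ± 97.8 CPM, 0.50 ± 0.12, adjusted p = 0.163), and Lox, a collagen crosslinking enzyme (0.38 ± 0.11, adjusted p = 0.252). Among the transcription factors, Sox9, the transcription factor that drives Col2a1, was lower in 4 of 4 rats (707 ± 155 and 503 ± 64.3 CPM, −0.48 ± 0.14, adjusted p = 0.271 by limma). So was Pax1 (44.4 ± 3.5 and 31.5 ± 2.61 CPM, −0.48 ± 0.14, adjusted p = 0.242). Of all genes, 14.1% were lower and 8.46% higher in 4 of 4 rats at this time.

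The other genes named for the smallest p of a list at 2 weeks had adjusted p between 0.243 and 0.428 by limma. They were P4ha1 (0.40), Tll1 (−0.95), Col14a1 (−0.86), Col6a2 (−0.32), Itga2 (−0.93), Itga11 (−0.78), Htra1 (−0.34) and Fap (−0.98). Of these, Col14a1, Itga11, Htra1 and Fap were also lower in 4 of 4 rats. At 8 weeks 1 gene of the 7 lists was called, Col5a3, a chain of collagen V, which fell by 1.82 ± 0.26 on the log2 scale (17.2 ± 2.44 and 4.24 ± 1.28 CPM, adjusted p = 0.0253). Without any one of rats 5 to 8 it did not pass (adjusted p 0.101 to 0.125). Without rat 4, whose libraries are of 2 weeks, 7 more of the named genes passed. Scrg1 (0.92 ± 0.16, adjusted p = 0.0532), P4ha2 (0.58 ± 0.12, adjusted p = 0.0782) and Cnmd, which encodes chondromodulin (0.60 ± 0.16, adjusted p = 0.105), were higher in 4 of 4 rats, as were 7.55% of all genes. Adamts2, which removes the amino-terminal propeptide of procollagen, was lower in 4 of 4 rats, as were 26.2% of all genes (15.2 ± 2.30 and 5.76 ± 1.44 CPM, −1.28 ± 0.23, adjusted p = 0.0598). The others named by the same rule were Fkbp10 (−0.26), Tll1 (−1.01), Pax1 (−0.29), Foxf1 (−0.31), Itga2 (−1.11), Itga11 (−1.01), Ctsk (−0.82) and Mmp2 (−1.29), with adjusted p between 0.0942 and 0.304. The list medians at 8 weeks were −0.21, −0.11, −0.43, −0.17, −0.91, −0.44 and −0.42 in the order given above, beside −0.16 over all genes.

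In CON at 8 against 2 weeks, genes of all 7 lists were called, where 11.1% of all genes tested were called lower and 7.08% higher. Lower were 9 of 24 matrix partners (Matn2 and Cnmd changed most, −1.27 ± 0.16 and −1.16 ± 0.27), 15 of 24 folding, modification and export genes (Colgalt2 −1.23 ± 0.09 and P3h1 −0.998 ± 0.14) and 8 of 11 processing and crosslinking genes (Pcolce −1.27 ± 0.20 and Loxl1 −1.20 ± 0.11). Also lower were 10 of 11 other collagens (Col1a1 −2.26 ± 0.26 and Col3a1 −1.71 ± 0.23), 4 of 8 receptors (Itga2 −1.54 ± 0.19 and Mrc2 −1.32 ± 0.14) and 4 of 9 proteases (Fap −1.07 ± 0.23 and Mmp2 −1.005 ± 0.18). Among 10 transcription factors, Sox6 was called lower (−0.62 ± 0.15), and Foxa2 (1.19 ± 0.30) and Runx2 (1.04 ± 0.22) higher, both from levels under 3 CPM. Without CON rat 3 neither Sox6 (adjusted p = 0.0586) nor Foxa2 (adjusted p = 0.0595) passed, nor did Foxa2 without CON rat 5 (adjusted p = 0.0514).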

How the data were processed

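The 16 libraries were made with 10x Genomics 3′ chemistry, and the authors processed the reads in Partek Flow, removed cells by mitochondrial share, number of genes and number of UMIs, clustered each group apart by K-means and named clusters by marker genes. The build named in the submitters' processing notes is rn6, while the aligner is not given in the sources used here, nor is any removal of doublets or free RNA. No doublet caller was run here. The deposited gene values are log2(CPM + 1) per cell, made by the authors from counts. The deposited per-cell total is in expected counts (UMIs summed over genes), and the deposited mitochondrial and ribosomal values are percent of a cell's counts. Dividing out the total returned whole reads, within 0.02, for 99.4 to 99.5% of values above 0, and these recovered counts were used for edgeR, for thinning to 1000 UMIs (cells below that left out) and for summed counts.

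CPM were averaged over the cells of a class with at least 20 cells per library, and log2(mean CPM + 1) was fitted with limma 3.58.1 (lmFit, eBayes with trend, two-sided) in R 4.3.3, with the rat as block, over 16 libraries for IVD cells (LDP minus CON at 2 and at 8 weeks, and the second less the first) and 8 for each subcluster. The 8 CON libraries were compared between times without a block. Genes needed a mean CPM of at least 1 in 4 of 16 or 2 of 8 libraries, p values were adjusted by Benjamini-Hochberg over all genes tested, and the threshold was 0.05. Alternatives were pseudocounts of 0.1 and 10, no filter, median centring, edgeR 4.0.16 (quasi-likelihood, TMM), no block, all cells of a library, thinning to 2000 UMIs, CPM of summed counts and leaving out each replicate. Fits were tested on simulated data. Members and lists were chosen with earlier results of these data known. From each list the genes named were up to 2 per direction with the largest change among those called, or else the 2 with the smallest p. Markers of endothelial, myeloid, lymphoid, erythroid, granulocyte, mural, and fibrocartilage and tendon cells were summed per library; in IVD cells granulocyte markers summed to at most 101 CPM, myeloid to 97.8, lymphoid to 33.2, endothelial to 335 and mural to 133 CPM. A further marker list is not reported here.

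CON and LDP libraries carry the number of their rat and are paired by the animal. After removal of group means, the correlation of the paired libraries over 11572 genes was −0.146, 0.201, 0.135 and −0.183 in rats 1 to 4 and 0.142, 0.454, 0.033 and 0.381 in rats 5 to 8. Thinned and unthinned shares carry counting error. In the main fits of LDP against CON the error was the spread between rats of the within-rat difference, moderated by limma. In IVD cells a single spread was shared by both times, so a rat of either time enters the error of both. For CON between times the error was the spread between rats. Python 3.11.15 was used for sums and figures, and promoter sequences came from the RefSeq table of build GRCr8.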

Additional observations from a re-analysis of the deposited data

Results flagged for a closer look

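In the 24 groups of 4 libraries formed by 6 members and 4 groups, a library was taken as standing apart where its gap to the nearest other library, divided by the range of the group, exceeded Dixon's critical value at 95% for 4 samples. Chance gives about 1 such group in 20. There were 2, both among the CON libraries at 2 weeks. For Col9a2, CON rat 1 stood at 397 CPM while the other 3 libraries lay between 364 and 366 CPM, a gap of 0.910 of the range. For Col9a3, CON rat 2 stood at 85.7 CPM and the others between 199 and 215 CPM, a gap of 0.919 of the range. Without CON rat 2 the Col9a3 difference between CON at 8 and 2 weeks was −1.05 (adjusted p = 0.00139 by limma), where all libraries gave −0.73 (adjusted p = 0.0737). Leaving out rat 1 changed no call of Col9a2. LDP rat 5 had the lowest level of 5 members among the 16 libraries, but in none of those groups did its gap reach the critical value.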

How the results depend on the processing

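Counts of called genes moved more than the members did. For LDP minus CON at 2 weeks in IVD cells (21 genes), the count was 3 with a pseudocount of 10, 10 with no replicate block, 0 with all cells of each library, and 0 to 7 with one rat of either time left out. At 8 weeks (30 genes) it was 81 with a pseudocount of 0.1, 1 with all cells, and 1 to 568 with one rat left out, 568 without rat 4, a rat of the earlier time, with 11492 rather than 11572 genes tested. The difference between times (0 genes) gave 2 with a pseudocount of 0.1, 3 with no replicate block, and 0 to 13 (13 without rat 3). NP cells (0 genes) gave 1 with median centring and 1 with edgeR, and 0 without any one rat. IAF cells (0 genes) gave 15 with median centring, 1 with edgeR, 5 with no replicate block, and 0 to 27 (27 without rat 4). OAF cells (173 genes) gave 111 (without rat 2) to 275 (without rat 4), and CON at 8 against 2 weeks (829 higher and 1302 lower), with one library left out, gave 1110 (without CON rat 3) to 2451 (without CON rat 2). Median centring moved the split of called genes to 26 higher and 3 lower from 16 and 5 at 2 weeks, and to 30 and 11 from 13 and 17 at 8 weeks, and edgeR gave 19 and 10 and no replicate block 8 and 27 at 8 weeks. For CON at 8 against 2 weeks it was 1086 and 1066 with median centring, 1175 and 1309 by edgeR, and 452 and 1257 with all cells.

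Of the members, Col2a1 at 2 weeks ran from −0.45 to 0.071 with one rat left out, and above 0 only without rat 4. At 8 weeks Col11a1 ran from −0.36 to 0.096 and Col9a3 from −0.68 to 0.054, above 0 only without rat 5. In subclusters Col2a1 turned to 0.077 (median centring) and 0.0088 (edgeR) in IAF cells, and ran from −0.33 to 0.20 there and from −0.42 to 0.42 in OAF cells, above 0 only without rat 4. For CON at 8 against 2 weeks, Col9a1 ran from −0.99 to −0.50 and Col9a3 from −1.05 to −0.61, and both passed only without CON rat 2. The cause of these shifts was not tested. Fitted without the replicate block, no member's call changed. Without rat 4, 7 more genes of the lists passed at 8 weeks (Adamts2, Cnmd, Ctsk, Itga2, Mmp2, P4ha2 and Scrg1, with the same fitted values), as did 3 with a pseudocount of 0.1 (Adamts2, Scrg1 and Tll1), Adamts2 with no replicate block, Cnmd with median centring and Itga2 without rat 2. Col5a3 did not pass with a pseudocount of 10, and neither Col5a3, Foxa2 nor Sox6 did with all cells. In all, 13 fits of list genes gained a call, 11 lost one and 591 kept theirs. Of 534 other fits of the members, 524 kept direction and call, and 24 of 168 levels moved by over 1 SD with CPM of summed counts. OAF was lowest in 41 of 48 pairs by CPM of summed counts and in 45 to 47 by the share of cells with a UMI. Shares of the low chains Col9a1 and Col9a3 rest on few UMIs per cell, so depth limits them most.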
